A study of Sus scrofa with 32 samples.

Results

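The genes described here encode the proteins of the mitochondrial ribosome, taken as every gene whose symbol begins with MRPL or MRPS followed by a number in the deposited annotation of the array. They numbered 71 of 8390 annotated gene symbols, 43 with an MRPL symbol and 28 with an MRPS symbol, and 85 of 14327 probe sets measured them. Where several probe sets carried 1 symbol, the one with the highest mean over all arrays was used, a choice needed for 13 genes. A filter on low values left 67 genes for testing. MRPL24, MRPL50, MRPS23 and MRPS30 lay among the 30% of probe sets with the lowest means and were not tested.

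RNA came from 3 tissues of 11 juvenile Ossabaw pigs, a miniature breed used to model diet-induced obesity, and was hybridised to 32 Affymetrix porcine arrays. The tissues were the coronary artery that descends at the left front of the heart (the left anterior descending artery, LAD), adipose tissue from around it (PVAT) and the thoracic aorta in its descending part (TA), both arteries taken whole. The pigs were 22 weeks old at sampling and had eaten their diet for 16 weeks. Lean pigs (n = 6) ate a commercial low fat diet, and obese pigs (n = 5) ate one rich in fat, high fructose corn syrup and cholesterol. The 6 groups were therefore lean LAD (6 arrays), obese LAD (5), lean PVAT (6), obese PVAT (5), lean TA (5) and obese TA (5), because lean pig 63 had no TA array. The labels record no genetic modification or other treatment in any group. The model is diet alone in young animals, and each array holds a whole vessel or piece of fat with all of its cell types.

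Mitochondria translate the few proteins encoded by their own DNA, nearly all of them subunits of the respiratory chain and ATP synthase, on a ribosome of their own. Its RNAs come from mitochondrial DNA, whereas every one of its proteins is encoded in the nucleus, made in the cytosol and imported. The large subunit forms peptide bonds and holds the exit tunnel, and the small subunit decodes the message. Some of the proteins have counterparts in bacterial ribosomes and others occur only in mitochondria. Heart muscle and brown fat, with their high oxidative activity, are known to hold many mitochondria.

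All values are the deposited log2 expression values, and a difference of 1 is a doubling. Array medians lay between 8.32 and 8.56. The smooth muscle marker mean was 13.07 to 13.51 in LAD, 12.00 to 13.14 in TA and 10.97 to 12.13 in PVAT, and the adipocyte marker mean was 8.44 to 9.66, 7.86 to 8.76 and 10.02 to 12.39 in the same order, which matched the labelled tissues. Heart muscle markers were also present. The mean of 19 cardiomyocyte markers ranged from 6.58 to 12.81 in PVAT and from 8.17 to 12.59 in LAD, and from 6.35 to 7.89 in TA, where 7 of the 19 (TNNT2, TNNI3, MYL2, MYL3, TTN, CSRP3 and MB) averaged below 6.64, the log2 of 100 that every deposited probe set reached on at least 11 arrays. The LAD array of lean pig 63, at 12.59, and the TA array of obese pig 57, with the lowest smooth muscle mean of TA, stood apart from their groups. One RNA kit served the arteries and another the fat, so kit and tissue cannot be told apart in any comparison of PVAT with an artery.

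The largest differences among mitochondrial ribosomal protein genes lay between fat and artery. In PVAT, 36 of the 67 genes were higher than in LAD, 2 were lower and 29 did not pass the test (limma, adjusted p under 0.05). Over all probe sets tested, 24.2% were higher and 32.4% lower in this comparison. The median difference of the 67 genes was 0.23 on the log2 scale, against -0.04 over all probe sets, and 58 of the 67 were positive, where 45.6% of all probe sets were. Against TA, 27 were higher in PVAT and 6 lower, where 26.9% of all probe sets were higher and 32.9% lower, and the median was 0.14 against -0.04. In the whole tissue, more cells of a type and more RNA per cell cannot be told apart.

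**Figure D1:**
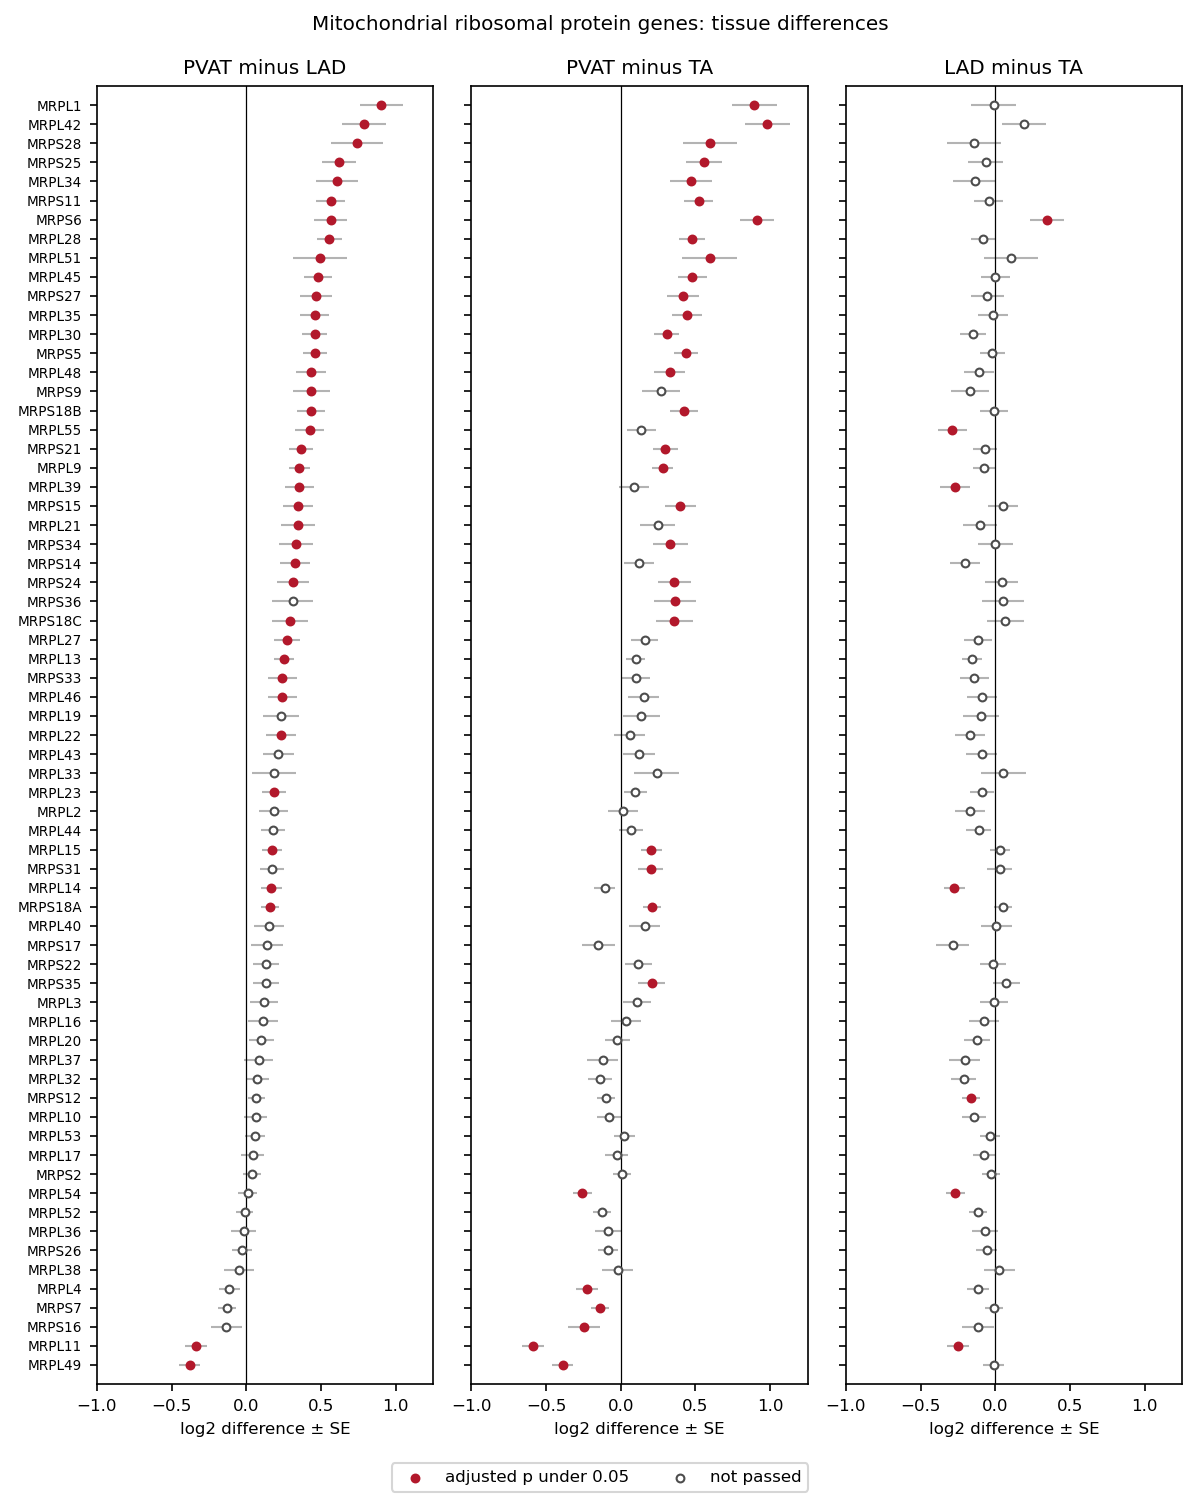
Log2 difference between tissues (horizontal axis, point ± SE) for each of the 67 mitochondrial ribosomal protein genes tested, ordered by the difference between PVAT and LAD; filled points had an adjusted p under 0.05 in limma. Most points of the 2 PVAT panels lie right of 0, with MRPL1, MRPL42 and MRPS28 at the top and MRPL11 and MRPL49 at the bottom, whereas most points of the LAD minus TA panel lie slightly left of 0.

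In the large subunit, 21 of 42 genes were higher in PVAT than in LAD and 2 were lower, with a median of 0.18. The shares of all probe sets were 24.2% and 32.4%. MRPL1, a counterpart of the bacterial protein that forms the stalk beside the exit site for transfer RNA, gave the largest difference. Its values ran from 7.89 through a median of 8.27 to 9.00 in lean LAD and were 8.45, 8.76, 8.25, 8.34 and 8.30 in obese LAD. In PVAT the lean pigs ran from 9.04 through 9.23 to 9.53, and the obese pigs gave 8.72, 9.35, 9.09, 9.50 and 9.82. The LAD arrays of lean pig 63 (9.00) and obese pig 55 (8.76) exceeded the PVAT array of obese pig 51 (8.72), and all other LAD arrays lay under all PVAT arrays. The difference was 0.90 ± 0.15 (SE; adjusted p = 7.39e-06), a 1.87-fold higher level in PVAT, and the sign was the same in 11 of 11 pigs.

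MRPL42, found only in mitochondrial ribosomes, ran from 9.39 through 9.59 to 10.16 in lean LAD and read 10.04, 9.95, 9.79, 9.54 and 9.58 in obese LAD. Lean PVAT ran from 10.10 through 10.53 to 11.03, and obese PVAT read 9.95, 10.39, 10.16, 10.77 and 10.99. Except for pig 63 in LAD, every lean LAD array lay under every PVAT array, and the obese groups overlapped through pig 51. PVAT was 0.79 ± 0.15 higher (1.73-fold, adjusted p = 4.47e-05), in 10 of 11 pigs. MRPL34 and MRPL28, both with bacterial counterparts, were 0.61 ± 0.14 higher (1.52-fold, adjusted p = 0.000505) and 0.56 ± 0.08 higher (1.47-fold, adjusted p = 2.42e-06), each in 11 of 11 pigs. The LAD arrays of MRPL28 lay at 9.39 to 9.94 and its PVAT arrays at 9.77 to 10.50, with the overlap made by LAD arrays of pigs 63 and 55.

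In the small subunit, 15 of 24 genes were higher in PVAT than in LAD, 0 were lower, and the median was 0.32. The shares of all probe sets were again 24.2% and 32.4%. A difference between the subunits was not tested. MRPS28 gave the largest value of the subunit. It ran from 7.73 through 7.84 to 8.70 in lean LAD and read 7.96, 7.72, 7.90, 7.76 and 7.89 in obese LAD, while lean PVAT ran from 8.07 through 8.66 to 9.36 and obese PVAT read 7.86, 8.53, 8.17, 8.77 and 9.51. The spread in PVAT was wide, and pig 51 (7.86) lay within the LAD values. The difference was 0.74 ± 0.18 (1.67-fold, adjusted p = 0.000788), positive in 10 of 11 pigs.

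MRPS25, which has no bacterial counterpart, was 0.62 ± 0.11 higher in PVAT (1.54-fold, adjusted p = 4.86e-05), from LAD values of 8.45 to 9.52 and PVAT values of 9.07 to 9.98. MRPS11, from the platform of the small subunit, was 0.56 ± 0.10 higher (1.48-fold, adjusted p = 1.61e-05). MRPS6, the counterpart of bacterial S6, was 0.56 ± 0.11 higher (1.48-fold, adjusted p = 8.78e-05). All of these were positive in 11 of 11 pigs, although only MRPL55, with LAD arrays at 9.07 to 9.35 and PVAT arrays at 9.44 to 9.80, had tissues that did not overlap at all, as had 14.9% of all probe sets tested. MRPL55 was 0.42 ± 0.10 higher in PVAT (adjusted p = 0.000479); it was singled out after its values were seen, and the platform annotation also gives its probe set to C2H1orf35. Of the 67 genes, 16 were higher in PVAT in every pig and 0 were lower in every pig, where 11.8% of all probe sets were higher and 21.2% lower in this way.

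The 3 paralogs related to bacterial S18 occupy different places, MRPS18A in the large subunit and MRPS18B and MRPS18C in the small one. In PVAT against LAD they were higher by 0.16 ± 0.06 (adjusted p = 0.0279), 0.43 ± 0.09 (adjusted p = 0.000217) and 0.29 ± 0.12 (adjusted p = 0.0414). The platform annotation assigns the MRPS18C probe set to RPL35, a protein of the cytosolic ribosome, so which transcript it measures is uncertain. The MRPS18A call was lost without pig 48, 51, 80 or 85 (0.13 to 0.15) and the MRPS18C call without pig 48, 55, 56, 80, 81, 85 or 86 (0.22 to 0.30) and with pig as a fixed block (0.29, adjusted p = 0.0792). With the cardiomyocyte marker mean as a covariate neither passed (adjusted p = 0.0538 and 0.118).

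The 2 genes that were lower in PVAT than in LAD were MRPL49 and MRPL11. MRPL11 lies at the base of the stalk where translation factors bind. It ran from 8.95 through 9.08 to 9.15 in lean LAD and read 8.79, 8.74, 8.90, 8.95 and 8.92 in obese LAD, against 8.38 through 8.60 to 8.94 in lean PVAT and 8.33, 8.75, 8.53, 8.54 and 9.00 in obese PVAT. Lean PVAT lay wholly under lean LAD, and the obese groups overlapped. MRPL11 was lower by 1.26-fold (-0.34 ± 0.07, adjusted p = 0.000288), in 9 of 11 pigs. A second probe set with this symbol, which the platform annotation gives to SIAH2, was higher in PVAT by 0.36 (adjusted p = 0.017), and the mean of both was 0.01 (adjusted p = 0.934). MRPL49 was lower by 1.30-fold (-0.38 ± 0.07, adjusted p = 4.88e-05), in 10 of 11 pigs, but the platform annotation gives its probe set to FAU, a cytosolic ribosomal protein fused to a ubiquitin-like one. Without the MRPL49 and MRPS18C probe sets, 35 of 65 genes were higher in PVAT than in LAD and 1 was lower.

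Several genes known for human disease did not pass this test. Defects of MRPL3, MRPL44 and MRPS22 cause cardiomyopathy in humans, and the PVAT minus LAD differences were 0.12 (adjusted p = 0.28), 0.18 (adjusted p = 0.056) and 0.13 (adjusted p = 0.191). MRPS12, at the decoding centre, gave 0.07 (adjusted p = 0.337) and MRPS16 gave -0.13 (adjusted p = 0.278). With the 28S/18S ratio, a measure of RNA integrity, as a covariate all of the first 3 passed, MRPL3 at 0.24 (adjusted p = 0.00544), MRPL44 at 0.24 (adjusted p = 0.00755) and MRPS22 at 0.22 (adjusted p = 0.0156). MRPL44 also passed with pig as a random block (0.18, adjusted p = 0.0479), with quantile normalization (adjusted p = 0.0467), with median centring (adjusted p = 0.0451) and without pig 51, 63 or 86 (0.21 to 0.23).

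**Figure D2:**
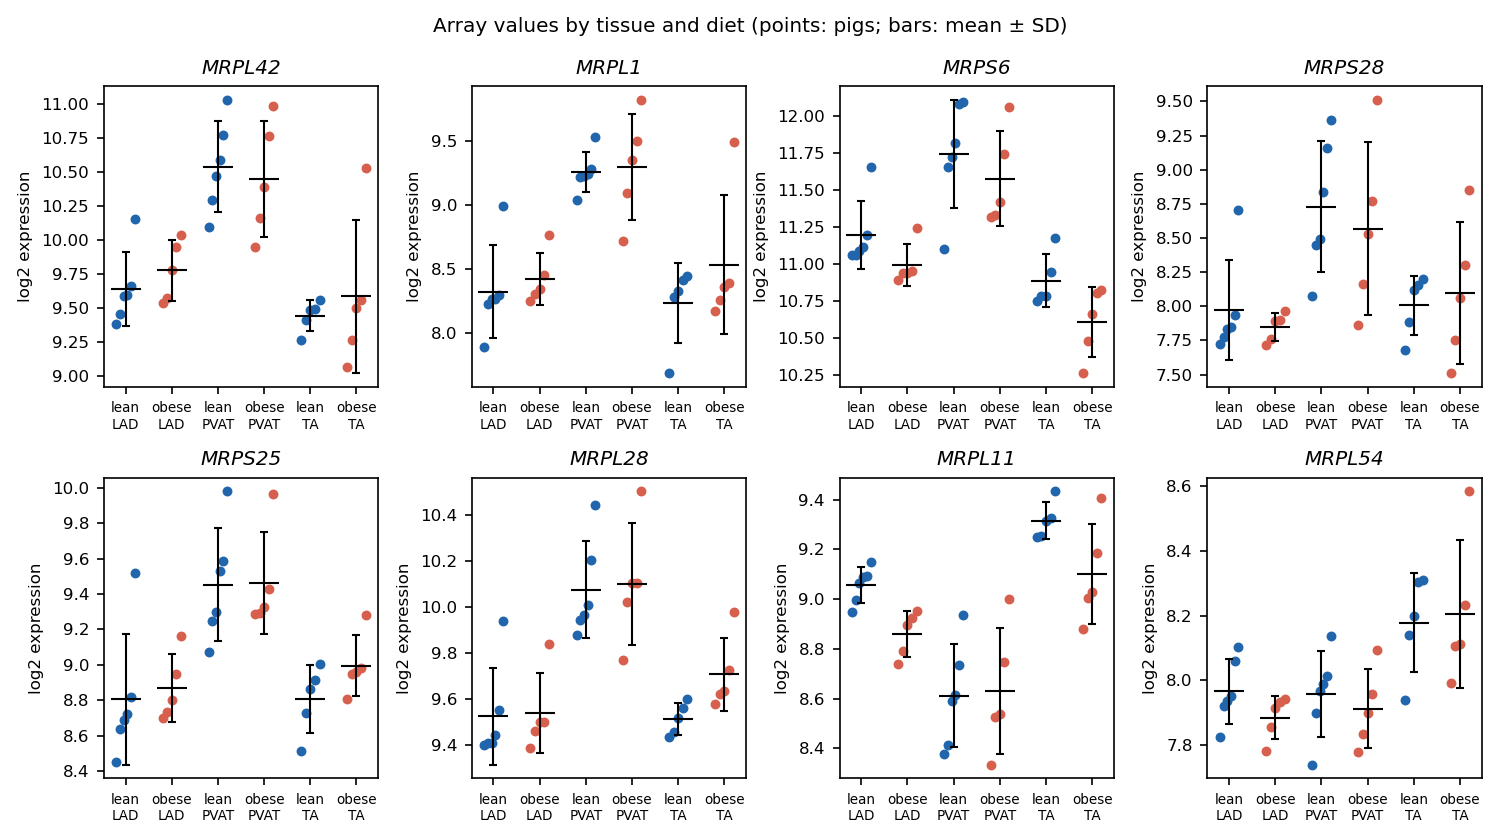
Log2 expression (vertical axis) of 8 mitochondrial ribosomal protein genes on each array, by tissue and diet; points are pigs (blue lean, red obese) and bars are mean ± SD. The first 6 genes have their highest group means in PVAT, MRPL11 has its lowest there, and MRPL54 has its highest in TA; 1 obese TA array (pig 57) lies at the PVAT level for MRPL1 and MRPL42.

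The comparison of PVAT with TA shares its PVAT arrays with the comparison above, so the values of both stand side by side here. The small subunit had 14 of 24 genes higher in PVAT than in TA and 2 lower (median 0.28), and the large subunit had 12 of 42 higher and 4 lower (median 0.10). As 26.9% of all probe sets were higher and 32.9% lower, the share of higher genes in the large subunit was near that of all probe sets. The number of lower genes, 6, was 10 without pig 85, 3 with the 28S/18S covariate and 3 with the lowest 50% of probe sets left out. MRPL42 gave the largest difference. Its TA values were 9.50, 9.42, 9.49, 9.26 and 9.56 in lean pigs and 9.56, 9.50, 10.53, 9.07 and 9.27 in obese pigs, so that every TA array but that of pig 57 lay under all PVAT arrays. It was 0.98 ± 0.15 higher in PVAT (1.97-fold, adjusted p = 2.18e-06), in 9 of 10 pigs. In every pig, 3 of the 67 genes (MRPL45, MRPS25 and MRPS6) were higher in PVAT than in TA and 2 (MRPL11 and MRPL49) lower. Of all probe sets tested, 10.1% were higher and 11.5% lower in this way. For 0 of the 67 genes did the PVAT and TA arrays not overlap, where 9.52% of all probe sets did not.

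MRPS6 differed between all 3 tissues. It read 10.95, 10.75, 11.17, 10.78 and 10.78 in lean TA and 10.81, 10.48, 10.26, 10.83 and 10.66 in obese TA. In LAD it ran from 11.06 through 11.10 to 11.65 in lean pigs and was 10.96, 10.94, 11.24, 10.94 and 10.89 in obese pigs, and in PVAT from 11.10 through 11.77 to 12.09 in lean pigs and 11.74, 11.33, 11.42, 11.32 and 12.06 in obese pigs. TA was lowest and PVAT highest, with 1 lean PVAT array (pig 86, 11.10) within the TA range. PVAT exceeded TA by 0.91 ± 0.11 (1.88-fold, adjusted p = 7.42e-08) in 10 of 10 pigs, and LAD exceeded TA by 0.35 ± 0.11 (1.27-fold, adjusted p = 0.0225) in 9 of 10. The LAD minus TA call was lost without pig 56 (0.33, adjusted p = 0.0521), pig 57 (0.27, adjusted p = 0.077) or pig 63 (0.30, adjusted p = 0.0509). In humans SLC5A3 overlaps this gene, and the platform annotation gives the probe set no symbol.

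The other large differences from TA were those of MRPL1 (0.89 ± 0.15, 1.86-fold, 9 of 10 pigs), MRPS28 (0.60 ± 0.18, 1.51-fold, 7 of 10), MRPL51 (0.60 ± 0.18, 1.51-fold, 8 of 10), MRPS25 (0.56 ± 0.12, 1.47-fold, 10 of 10) and MRPS11 (0.52 ± 0.10, 1.43-fold, 9 of 10). MRPL45, which in the mammalian ribosome sits by the exit tunnel and holds it to the inner membrane, was 0.48 ± 0.10 higher (1.39-fold, adjusted p = 0.00014) in 10 of 10 pigs. MRPL51, specific to mitochondria, had the highest adjusted p of this group, 0.00652. In TA, MRPL1 and MRPS28 had their highest values in the pig 57 array (9.50 and 8.85), where the other TA arrays reached 8.45 and 8.30.

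MRPL11 was lower in PVAT than in TA by 1.50-fold (-0.59 ± 0.07, adjusted p = 1.27e-07), in 10 of 10 pigs. Its TA values were 9.43, 9.25, 9.25, 9.31 and 9.33 in lean and 9.41, 9.18, 8.88, 9.03 and 9.01 in obese pigs. All lean TA arrays lay above every PVAT array, and in obese pigs only PVAT pig 85 (9.00) exceeded any TA array. MRPL49 was lower by 1.31-fold (-0.39 ± 0.07, adjusted p = 3.71e-05), also in 10 of 10 pigs. MRPL54, found only in mitochondrial ribosomes, was lower by 1.19-fold (-0.26 ± 0.07, adjusted p = 0.00132), as was MRPL4, of the exit tunnel wall, by 1.17-fold (-0.23 ± 0.07, adjusted p = 0.00904). MRPS16 (-0.25 ± 0.11, adjusted p = 0.0444) and MRPS7 (-0.14 ± 0.06, adjusted p = 0.0441) were near the threshold. The MRPS16 call was lost without pig 48, 51, 56, 57, 63, 73, 80 or 86, with values from -0.27 to -0.13, with pig as a fixed block (-0.24, adjusted p = 0.09) and with the 28S/18S ratio as a covariate (-0.03, adjusted p = 0.656). The MRPS7 call was lost without pig 48, 51, 56, 57, 63, 73, 81 or 86, with values from -0.15 to -0.10, and with the 28S/18S covariate (-0.10, adjusted p = 0.153). That covariate also ended the MRPL4 call (-0.14, adjusted p = 0.0814), as did the cardiomyocyte marker mean (-0.19, adjusted p = 0.18).

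The MRPS18 paralogs were each higher in PVAT than in TA, by 0.21 ± 0.06 for MRPS18A (adjusted p = 0.00441), 0.42 ± 0.09 for MRPS18B (adjusted p = 0.000309) and 0.36 ± 0.12 for MRPS18C (adjusted p = 0.0139). The last call was lost without pig 81 (0.29) or pig 85 (0.22). MRPL3, MRPL44, MRPS12 and MRPS22 again did not pass. With the 28S/18S covariate MRPL3 (0.27, adjusted p = 0.00328) and MRPS22 (0.23, adjusted p = 0.0153) passed, and MRPS12 passed without pig 80 (-0.14, adjusted p = 0.0368). Of the 4 genes left out by the filter, MRPS30, a large subunit protein in spite of its symbol, was lower in PVAT than in TA by 0.46 on the log2 scale when no filter was used (-0.46 ± 0.11, adjusted p = 0.000541); no other of the 4 passed a tissue test.

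Fewer genes passed between the arteries. In LAD against TA, 1 gene was higher and 6 were lower, where 14.4% of all probe sets were higher and 10.1% lower. The median of the 67 genes was -0.07, against 0.01 over all probe sets, and 53 of the 67 differences were negative, where 47.4% of all probe sets were. The large subunit had 0 higher and 5 lower of 42, and the small subunit had 1 of each among 24. In every pig, 0 of the 67 genes were higher in LAD and 5 lower. Of all probe sets tested, 9.04% were higher and 5.37% lower in this way.

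MRPL54 was lower in LAD by 1.20-fold (-0.27 ± 0.07, adjusted p = 0.00265), in 9 of 10 pigs. Its LAD values ran from 7.82 through 7.94 to 8.10 in lean pigs and were 7.93, 7.78, 7.94, 7.91 and 7.86 in obese pigs, against 8.30, 8.14, 8.31, 7.94 and 8.20 in lean TA and 8.58, 8.11, 8.23, 8.11 and 7.99 in obese TA. The obese groups did not overlap, and in lean pigs only TA pig 80 (7.94) lay within the LAD range. MRPL14, at the interface between the subunits, was lower by 1.21-fold (-0.27 ± 0.07, adjusted p = 0.00427), in 10 of 10 pigs, and MRPL11 by 1.19-fold (-0.25 ± 0.07, adjusted p = 0.0137), in 9 of 10. These 3 genes passed in every alternative that kept the same probe sets.

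MRPL55 (-0.29 ± 0.10, adjusted p = 0.0315, 10 of 10 pigs lower), MRPL39 (-0.27 ± 0.10, adjusted p = 0.0496) and MRPS12 (-0.16 ± 0.06, adjusted p = 0.0419) also passed. The TA array of pig 57 read 10.48 for MRPL55, where the other TA arrays reached 9.51, and without that array the MRPL55 difference was -0.17 and that of MRPS12 -0.13 (adjusted p = 0.0715). Each lost its call when single pigs were left out. For MRPL55 those were pigs 48, 51, 73, 80 and 86 (-0.30 to -0.27), for MRPL39 pigs 48, 51, 55, 56, 73, 80, 81 and 86 (-0.29 to -0.23), and for MRPS12 pigs 48, 51, 55, 56, 57, 73 and 86 (-0.16 to -0.13). With pig as a fixed block MRPL39 (adjusted p = 0.0831) and MRPS12 (adjusted p = 0.075) did not pass. The count of 7 genes was 4 without pig 48, 51, 56, 73 or 86, and the number lower was 3 without pig 48, 51, 73 or 86.

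Other parts of the mitochondrial translation apparatus were counted beside the ribosomal proteins. For these counts, 24.2% of all probe sets were higher and 32.4% lower in PVAT than in LAD, and 26.9% and 32.9% than in TA. Of 6 ribosomal subunits with other symbols, 2 were higher in PVAT than in both arteries and none was lower. DAP3, a GTP-binding protein of the small subunit, was 0.53 ± 0.09 above LAD (adjusted p = 9.74e-06) and 0.44 ± 0.09 above TA (adjusted p = 0.000115). ICT1, a peptidyl-tRNA hydrolase built into the large subunit, was 0.57 ± 0.13 above LAD (adjusted p = 0.000669) and 0.80 ± 0.14 above TA (adjusted p = 1.24e-05). CHCHD1, PTCD3, MRP63 and GADD45GIP1 did not pass against LAD (0.11, 0.12, 0.12 and -0.02).

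Of 11 assembly factors of the mitochondrial ribosome, 7 were higher in PVAT than in LAD (24.2% of all probe sets) and 6 than in TA (26.9%), with none lower. GTPBP10, a GTPase in large subunit maturation, gave 0.64 ± 0.08 against LAD (adjusted p = 5.12e-08), with tissues that did not overlap, and NGRN gave 0.51 ± 0.17 (adjusted p = 0.0149). Of 10 translation factors, 8 were higher than in LAD and 5 than in TA, again with none lower. LRPPRC, which stabilises mitochondrial messenger RNAs, was 0.63 ± 0.14 above LAD (adjusted p = 0.000318), and QRSL1, a subunit of the enzyme that makes glutaminyl-tRNA in mitochondria, was 0.56 ± 0.20 above it (adjusted p = 0.0195).

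Genes upstream of the ribosome gave mixed directions. Of 10 genes for mitochondrial DNA and RNA, 4 were higher in PVAT than in LAD (24.2% of all probe sets), led by TEFM (0.46), and FASTKD5 was lower (-0.24). Of 5 regulators of mitochondrial biogenesis, GABPA, a transcription factor for nuclear genes of mitochondrial proteins, was lower than in LAD (-0.71 ± 0.11, adjusted p = 2.9e-06), and MYC was higher (0.65 ± 0.17, adjusted p = 0.00221). Between the arteries, MYC was lower in LAD than in TA (-1.14 ± 0.18, adjusted p = 1.11e-05), as was TARS2, the mitochondrial threonyl-tRNA synthetase (-0.45 ± 0.06, adjusted p = 3.36e-07), with no overlap between the arteries. Such a lack of overlap was seen for 3.85% of all probe sets tested. TARS2 also passed as lower in PVAT than in TA. Other mitochondrial tRNA synthetases went the other way. HARS2 passed as higher in LAD than in TA, and HARS2 and LARS2 passed as higher in PVAT than in both arteries.

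The respiratory chain and ATP synthase list, whose mitochondrially encoded partners this ribosome makes, had 65 of 71 genes higher in PVAT than in LAD and 1 lower, with a median of 0.59. Against TA, 65 were higher and 0 lower, with a median of 0.67. Both medians exceeded those of the mitochondrial ribosomal protein genes, 0.23 and 0.14. Cytosolic ribosomal protein genes had 44 of 66 higher in PVAT than in LAD and 0 lower (median 0.12), and 10 higher and 9 lower against TA (median -0.02). Between the arteries they had 0 higher and 39 of 66 lower in LAD (median -0.12). The shares of all probe sets higher and lower were 24.2% and 32.4% in PVAT against LAD and 26.9% and 32.9% against TA. In LAD against TA they were 14.4% and 10.1%. No test of the difference between these lists was made.

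**Figure D3:**
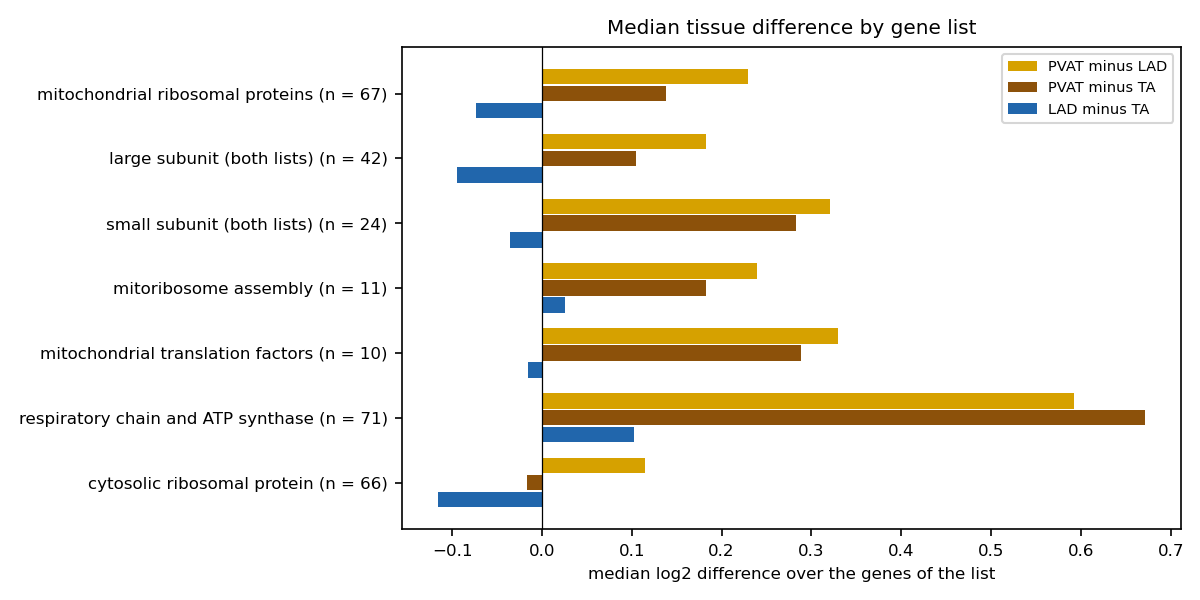
Median log2 difference (horizontal axis) over the tested genes of each list, for 3 tissue comparisons; n is the number of genes tested. Mitochondrial ribosomal protein genes lie at 0.23 and 0.14 in the 2 PVAT comparisons and at -0.07 between the arteries, and the respiratory chain list lies at 0.59 and 0.67 in the PVAT comparisons.

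Heart muscle markers also differed between the tissues. Of the 19 cardiomyocyte markers, 5 were higher in PVAT than in LAD and 0 lower (median 1.15), where 24.2% of all probe sets were higher. Against TA, 15 were higher in PVAT and 0 lower (median 2.73), where 26.9% of all probe sets were higher. All 7 adipocyte markers were higher in PVAT than in either artery. The mean of the 67 genes per array ran from 9.13 to 9.45 in LAD, from 9.18 to 9.82 in PVAT and from 9.09 to 9.55 in TA. The PVAT arrays of pigs 85 and 80, with the highest means of the 67 genes (9.82 and 9.76), also had the highest cardiomyocyte marker means (12.81 and 12.69). The PVAT array of pig 73, with a marker mean of 6.58, had a mean of 9.34 for the 67 genes. That exceeded the PVAT arrays of pigs 57, 86 and 51 (9.24, 9.32 and 9.18), with marker means of 11.59, 10.16 and 9.11.

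With the cardiomyocyte marker mean as a covariate, 27 of the 67 genes were higher in PVAT than in LAD and 3 lower (median 0.17). Against TA, 11 genes passed in place of 33, 5 of them higher, but the marker ranges of PVAT and TA overlapped only between 6.58 and 7.89. Only the PVAT array of pig 73 lay in that overlap, and the next lowest PVAT array was at 9.11 (pig 51). The covariate values of PVAT against TA are therefore largely an extrapolation and decide nothing. The calls over all probe sets fell too, to 3982 from 5992 against TA and to 5568 from 5677 against LAD. Under that covariate MRPL51 and MRPS28 lay at -0.01 (adjusted p = 0.968) and -0.02 (adjusted p = 0.955) against TA, whereas MRPL1, MRPL34, MRPL42, MRPS5 and MRPS6 were among the genes that still passed as higher and MRPL11, MRPL49 and MRPL54 among those that passed as lower. MRPL45, MRPS11, MRPS25 and the MRPS18 paralogs no longer passed against TA. The LAD minus TA value of MRPS6 was 0.12 (adjusted p = 0.59) under the same covariate. The marker ranges of LAD (8.17 to 12.59) and TA (6.35 to 7.89) did not overlap, so that value is an extrapolation and decides nothing.

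The 28S/18S ratio lay between 0.63 and 1.47 in LAD, 0.57 and 1.24 in PVAT and 0.57 and 2.14 in TA. With it as a covariate 50 of the 67 genes passed in PVAT against LAD in place of 38, 48 of them higher, and the median was 0.32. Against TA 42 passed in place of 33, 39 of them higher, with a median of 0.27, and between the arteries 9 passed in place of 7. The calls over all probe sets in these 3 comparisons were 6051, 6185 and 2842, in place of 5677, 5992 and 2458. The part of RNA integrity in the tissue differences was not tested beyond this fit.

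Within PVAT, 61 of the 67 slopes on the marker mean were positive, with a median of 0.065 per log2 unit of the markers, and 0 passed the test (limma with diet as a term; 1.86% of all probe sets passed as positive and 0.379% as negative). Without pig 73, 12 passed, and without pig 48 or 57, 1. With the sacrifice date as a block 7 passed, without the 2 arrays farthest from the median 5. With the 28S/18S ratio as a covariate 0 passed and 49 slopes were positive, with a median of 0.02. In the respiratory chain list 18 of 71 slopes passed (median 0.172), a number that was 0 without pig 51 or with the 28S/18S covariate, 2 without pig 80, 3 without pig 56, 6 without pig 63, 11 without pig 55 or 86, 42 with the date block, 40 without the 2 farthest arrays and 53 without pig 73. In the cytosolic list 5 of 66 slopes were positive and 0 passed. Within LAD, 3 of 67 passed and 41 were positive, where 3.22% of all probe sets passed as positive and 4.55% as negative. Without pig 63, 0 passed and 24 were positive, and with the date block 0 passed and 60 were positive. None passed as positive with the 28S/18S covariate, without the 2 farthest arrays or without pig 48, 57, 80 or 86; without pig 51 or 73, 1 passed, without pig 85, 2, and without pig 55 or 56, 5. Within LAD, 43 of 71 slopes of the respiratory chain list passed (median 0.149). None passed without pig 63, without the 2 farthest arrays, with the date block or with the 28S/18S covariate. With any other pig left out, 17 to 47 passed. For the slopes, shares of all probe sets that passed were counted in the main fits only. Shares of positive slopes over all probe sets were not counted. Counts in the alternative fits thus have no share to be read against. The part of heart muscle in the tissue differences was not tested beyond these fits, which were chosen after seeing the data.

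**Figure D4:**
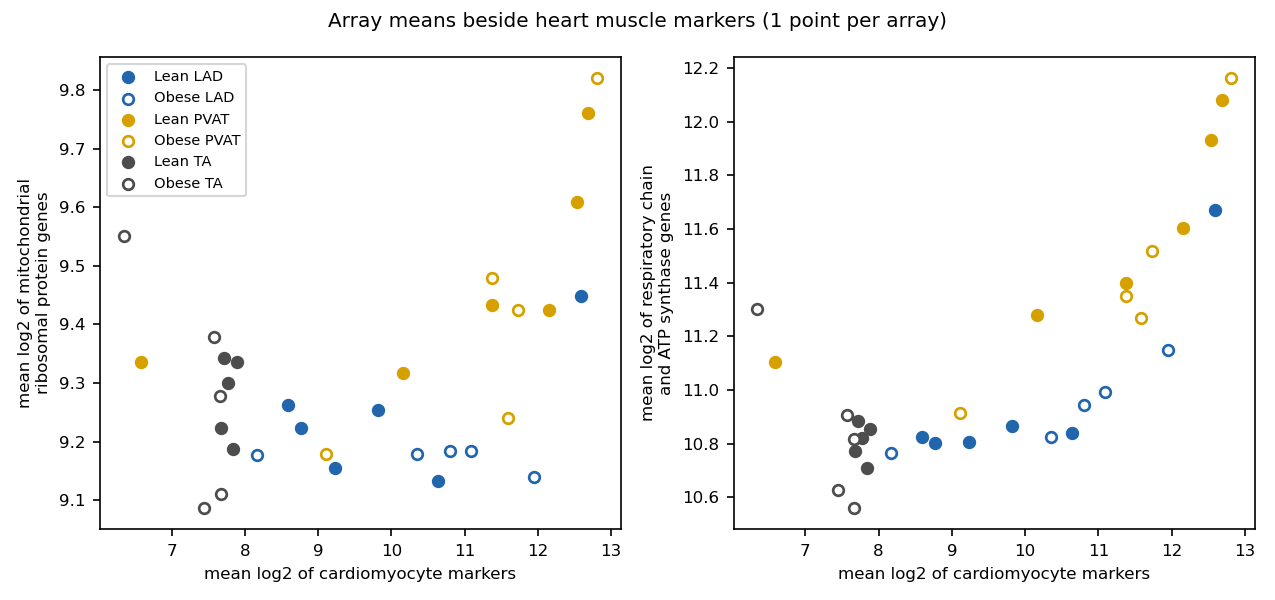
Mean log2 value of the 67 mitochondrial ribosomal protein genes (left) and of the respiratory chain and ATP synthase genes (right) on each array against the mean of the cardiomyocyte markers (horizontal axis, log2). Filled symbols are lean and open ones obese; the PVAT arrays with marker means of 12.69 and 12.81 have the highest means on the left, and TA arrays lie at marker means of 6.35 to 7.89.

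The pigs were killed on 3 dates, and each date held both diets. Within the dates the median PVAT minus LAD difference of the 67 genes was 0.205, 0.100 and 0.326, with 56, 44 and 60 of them positive. Against TA it was 0.107, -0.113 and 0.352, so the direction of this median was turned on the second date, when 23 of 67 were positive. That date held only lean pig 48 and obese pig 51. Their medians over the 67 genes were 9.40 and 9.18 in PVAT and 9.42 and 9.42 in TA. The PVAT array of pig 51 had a 28S/18S ratio of 0.57, the lowest of PVAT. MRPL42 (0.73, 0.59 and 1.42), MRPL1 (0.69, 0.62 and 1.22) and MRPS6 (1.08, 0.90 and 0.82) kept their sign against TA on all dates, as did MRPL11 (-0.49, -0.95 and -0.49). MRPS28 did not (0.50, -0.03 and 1.06). The LAD minus TA medians were -0.084, -0.192 and 0.026.

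No mitochondrial ribosomal protein gene passed the test between obese and lean pigs in any tissue. Of all probe sets, 0.0399% passed in LAD, all of them higher, and 0% in PVAT and in TA. In LAD the median obese minus lean difference of the 67 genes was -0.09, against -0.06 over all probe sets, and 48 of the 67 were negative, where 65.7% of all probe sets were. In PVAT it was -0.05 against 0.00, with 50 negative and 49.8% of all probe sets, and in TA 0.02 against -0.03, with 31 negative and 55.4% of all probe sets. Within the 3 dates, which held 1 to 3 arrays a group, the median was -0.123, 0.012 and -0.072 in LAD, -0.156, -0.258 and 0.142 in PVAT and 0.203, 0.034 and -0.177 in TA, so in no tissue did it keep 1 direction. The largest absolute difference of any of the 67 genes was 0.26 in LAD, 0.25 in PVAT and 0.49 in TA.

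In LAD, 9 of the 67 genes had an unadjusted p under 0.05 and all were lower in obese pigs, where 11.7% of all probe sets were lower by this criterion and 5.49% higher. MRPL49 ran from 10.92 through 11.04 to 11.14 in lean pigs and from 10.59 through 10.73 to 10.96 in obese pigs, a difference of -0.26 ± 0.08 (adjusted p = 0.178). The groups overlapped slightly. MRPL3 gave -0.23 ± 0.09 (adjusted p = 0.243) and MRPS33 -0.23 ± 0.11 (adjusted p = 0.324). The largest positive values were 0.14 for MRPL42, 0.13 for MRPS34 and 0.11 for MRPL37. MRPL11 averaged 9.06 ± 0.07 (SD, 6 lean pigs) and 8.86 ± 0.09 (5 obese pigs), a difference of -0.20 that did not pass. Cytosolic ribosomal protein genes had a median of -0.07 in the same arrays, with 66 of 66 negative and none past the test.

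In PVAT, 0 of the 67 genes had an unadjusted p under 0.05, where 2.2% of all probe sets did. MRPL45 had the lowest value (-0.25 ± 0.17) and MRPL33 the highest (0.10). For the respiratory chain list the median was -0.13. The 28S/18S ratio lay between 0.86 and 1.24 in lean pigs and between 0.57 and 1.08 in obese pigs, and with it as a covariate the median of the 67 genes was 0.10. Its part in the PVAT values was not tested further.

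In TA, 2 of the 67 genes had an unadjusted p under 0.05, both lower in obese pigs, where 3.52% of all probe sets were lower by this criterion and 3.66% higher. MRPL39, a large subunit protein related to threonyl-tRNA synthetase, read 10.58, 10.49, 10.82, 10.50 and 10.77 in lean TA and 10.28, 10.16, 9.97, 10.29 and 10.02 in obese TA. Of the 67 genes it alone had diet groups that did not overlap in TA, where 2.99% of all probe sets did not, and none of the 67 had such groups in LAD (2.73% of all probe sets) or PVAT (0.209%). The difference was -0.49 ± 0.11 (adjusted p = 0.353), and within the dates it was -0.43, -0.30 and -0.54. In LAD the mean of MRPL39 was 10.22 ± 0.13 (SD, 6 lean pigs) against 10.02 ± 0.14 (5 obese pigs), and in PVAT 10.58 ± 0.28 against 10.36 ± 0.40, and neither difference passed. The other was MRPS36 (-0.30 ± 0.13, adjusted p = 0.688), which is no longer counted as a subunit of the ribosome, and MRPS6 gave -0.28 (adjusted p = 0.690). The largest positive values were 0.36 ± 0.23 for MRPS34, 0.30 for MRPL1 and 0.26 for MRPL37.

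RNA quality varied in obese TA. The 28S/18S ratios of pigs 85, 81, 51, 55 and 57 were 0.57, 0.61, 1.28, 1.29 and 2.14, beside means of the 67 genes of 9.09, 9.11, 9.38, 9.28 and 9.55. With the ratio as a covariate 2 of the 67 genes passed in TA, MRPL39 at -0.51 (adjusted p = 0.0330) and MRPS34 at 0.53 (adjusted p = 0.0190), among 547 probe sets in all. The median of the 67 genes in TA was 0.02 with all arrays, -0.07 without pig 57, 0.09 without pig 85 and -0.11 with the cardiomyocyte covariate.

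**Figure D5:**
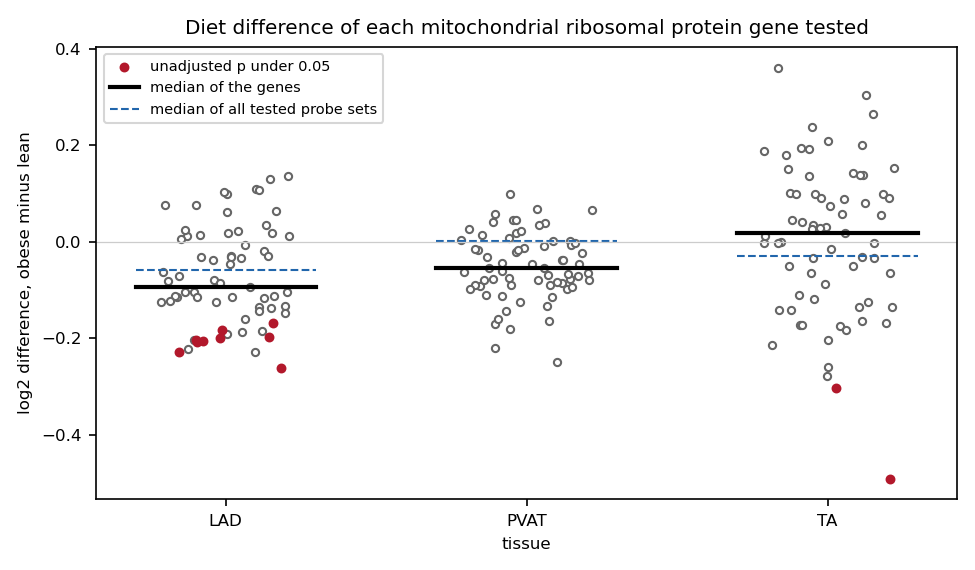
Log2 difference between obese and lean pigs (vertical axis) of each of the 67 mitochondrial ribosomal protein genes by tissue. Filled points had an unadjusted p under 0.05, none passed after adjustment, and the solid and dashed lines are the medians of these genes (-0.09, -0.05 and 0.02) and of all probe sets tested (-0.06, 0.00 and -0.03).

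The diet difference was also compared between tissues in 1 fit of all 6 groups. None of the 67 genes passed for any pair of tissues, nor did any probe set (0%). The medians of the 67 interaction values were 0.03 for PVAT against LAD, -0.08 for LAD against TA and -0.08 for PVAT against TA. The smallest adjusted p among the 67 genes was 0.854, in the last of these. The median tissue difference was 0.18 in lean and 0.27 in obese pigs for PVAT minus LAD and 0.16 in each for PVAT minus TA, and -0.02 and -0.12 for LAD minus TA.

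Genes with several probe sets varied in how well these matched. Of the 13, the signs of the probe sets opposed in 2 for PVAT minus LAD, in 2 for LAD minus TA and in 4 for PVAT minus TA. The 3 probe sets of MRPS9, a small subunit protein, gave 0.49, 0.44 and 0.26 for PVAT minus LAD. For MRPS25 the other probe set gave 0.12 (adjusted p = 0.207), against 0.62 for the one used, and for MRPL32 the other gave 0.29 (adjusted p = 0.016), against 0.07. All values of this paragraph came from a fit without the filter on low values. The other MRPS25 probe set (mean 7.02, no symbol in the platform annotation) lay among those the filter left out. So did the MRPS9 probe set at 0.26 (mean 7.67). These genes were chosen after their values were seen.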

How the data were processed

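The authors deposited log2 expression values per probe set, made with affy per the submitters' processing notes; the version, background correction and normalization are not given in the sources used here. Every deposited probe set reached log2 of 100 (6.64) on at least 11 of the 32 arrays. The depth of an array is not defined, and the number of pigs limits the precision. The authors also deposited a table of human symbols for the pig probe sets, and the platform annotation was set beside it: of the 71 genes, 56 had the same symbol there, 12 none, 1 several and 2 another. A further 28 symbols that a spreadsheet had turned into calendar entries were set aside.

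Probe sets in the lowest 30% by mean were left out and the other 10029 tested in R 4.3.3 with lmFit and eBayes of limma 3.58.1 (two-sided, Benjamini-Hochberg over all probe sets tested, adjusted p under 0.05). Diet was fitted within each tissue. Tissue differences and interactions came from 1 fit of 6 groups, where both diets weigh equally in a tissue difference. The script was tested on simulated data. Arrays of different tissues come from the same pigs per the labels, and arrays of 1 pig had a consensus correlation of 0.076. Replicates are separate animals.

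The members and lists were chosen with earlier results of these data known. The genes named were, for each comparison, up to 8 per direction with the largest difference among those that passed (up to 3 where none did), with a fixed set of stalk, decoding, disease and MRPS18-related genes, subunits with other symbols, and the largest of the other pathway lists. Alternatives were the filter, normalization, probe set rule, symbol source, eBayes settings, covariates (28S/18S ratio, cardiomyocyte markers), pig as a block and leaving out each pig. No sequences were used here.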

Additional observations from a re-analysis of the deposited data

Results flagged for a closer look

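For 37 named genes in 6 groups, 27 of 222 sets of values held 1 array far from the rest by Dixon's criterion. Chance alone flags about 1 in 20, but the sets share their arrays and are not independent, so no excess can be read from the count. The LAD array of lean pig 63 accounted for 10 of the 27, in each case as the highest of its group. It read 9.0 for MRPL1, 9.94 for MRPL28, 10.16 for MRPL42, 9.97 for MRPL51 and 10.78 for MRPS15. It read 9.98 for MRPS18B, 8.92 for MRPS18C, 9.52 for MRPS25, 8.7 for MRPS28 and 11.65 for MRPS6. Its cardiomyocyte marker mean was 12.59, and its part in these values was not tested.

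The TA array of obese pig 57 was the highest of its group for 4 genes, with 9.5 for MRPL1, 10.07 for MRPL14, 10.48 for MRPL55 and 8.5 for MRPS30, where the next values were 8.39, 9.61, 9.51 and 7.67. Its 28S/18S ratio was 2.14. In obese LAD, pig 55 stood apart for MRPL28 (9.84), MRPL39 (9.76, the lowest) and MRPS18A (8.85), and pig 57 for MRPL44 (8.98, the lowest) and MRPS6 (11.24). In obese PVAT, pig 85 was the highest for MRPL33 (10.95, next 9.76) and MRPS25 (9.97).

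Among lean pigs, pig 73 stood apart in LAD for MRPL37 (9.51) and pig 80 for MRPS34 (8.95) and MRPS7 (8.33). In lean TA, pig 80 was the lowest for MRPL1 (7.69) and pig 86 the lowest for MRPS11 (8.44). In lean PVAT, pig 56 was the highest for MRPL50 (8.07).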

How the results depend on the processing

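The count of genes that passed was 38 for PVAT minus LAD, 33 for PVAT minus TA and 7 for LAD minus TA. With 1 pig left out it was 29 to 41, 27 to 37 and 4 to 10, and 0 for every diet and interaction comparison. With pig as a random replicate block it was 41, 34 and 9, and as a fixed replicate block 34, 31 and 5; the blocks gave 0 calls for the interactions. With the cardiomyocyte marker mean as a covariate it was 30, 11 and 12, with 0 of the last higher in LAD. The calls over all probe sets were then 5568, 3982 and 1946, in place of 5677, 5992 and 2458. The counts of LAD minus TA under this covariate are an extrapolation, because the marker ranges of LAD and TA did not overlap. Those of PVAT minus TA largely are as well, because only the PVAT array of pig 73 lay within the marker range of TA. With the 28S/18S ratio as a covariate the count of genes that passed was 50, 42 and 9, and 2 genes passed for diet in TA. The median diet difference of the 67 genes, which was not tested, lay on both sides of 0 in PVAT (-0.05, 0.10 with the 28S/18S covariate, -0.14 to 0.02 with 1 pig left out) and in TA (0.02, -0.11 with the cardiomyocyte covariate, -0.02 with date as a block, -0.07 to 0.09 with 1 pig left out). Changes of sign were followed for the named genes only. Among those that had passed, MRPL11 changed sign in PVAT minus LAD with the mean of all its probe sets (0.0084, adjusted p = 0.934). Its second probe set carries another symbol in the platform annotation. MRPL51 (-0.015, adjusted p = 0.968) and MRPS28 (-0.019, adjusted p = 0.955) changed sign in PVAT minus TA with the cardiomyocyte covariate, for which the cause was not tested. Among the alternatives run on the same probe sets, 28 of the 38, 8 of the 33 and 3 of the 7 genes passed in the same direction each time. With platform symbols, 27 of 54 genes passed in PVAT minus LAD. The normalization behind the deposited values is unknown, and 12 of the 71 genes have no second annotation that names them. No array gives a count, and the error of low levels was judged only from the spread between pigs.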
